A study of Mus musculus with 16 samples.

Results

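The transcriptome described here is that of granulosa cells taken fresh from 5 sham-operated mice, the Con group, which make up 5 of the 16 samples of the series. Each library, Con-mGC-1 to Con-mGC-5, held poly(A) RNA of mouse granulosa cells (mGCs) from 1 animal and was chosen by its label alone. The mice were adult female ICR, an outbred stock, bought at 6 weeks of age. They had abdominal surgery in which no endometrial tissue was implanted, kept their ovaries, and later received gonadotropin to induce ovulation. No mutant allele, drug or culture step was part of this group, and the methods do not state whether sham mice also received the estradiol given around implantation. The cells came from punctured follicles without a sort, so the isolates may hold other cells of the ovary. With 1 group there was nothing to test, and the values below are levels and their spread over 5 mice, without p-values.

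Granulosa cells line the ovarian follicle and surround the oocyte. They answer follicle-stimulating hormone with growth, estrogen synthesis by aromatase and secretion of inhibin, and after the luteinizing hormone surge they begin to make progesterone and become the luteal cells of the corpus luteum. Gap junctions couple them to each other and to the oocyte.

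Counts per mouse on the 57010 annotated genes summed to between 14462398 and 15999234. Levels are given as CPM, the counts per 1000000 reads after adjustment for library composition with TMM factors, which lay between 0.986 and 1.01. A count was found in at least 1 mouse for 32887 genes and in every mouse for 20008, and 12267 genes had a mean of at least 5 CPM, about 78 reads in a library of median size. Con-mGC-1 stood apart from the rest of the group. It had a count for 22071 genes, against 26085 to 27642 in the other 4 libraries of similar depth, and its correlations with them over log2 CPM were 0.965 to 0.971, against 0.978 to 0.988 between the others.

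The most abundant transcripts were those of the mitochondrial respiratory chain, of steroid synthesis and of the inhibin subunits. The 10 genes with the highest mean CPM held 10.5% ± 1.81 (SD, n = 5) of all reads, or 9.80% without Con-mGC-1, when 48 of the 50 most abundant genes stayed the same. Of these 10, 5 were encoded by the mitochondrial genome, 4 are markers of granulosa cells (Cyp11a1, Inha, Hsd3b1 and Gja1) and the last was Eef1a1, the elongation factor of protein synthesis. The leading gene, mt-Co1, which encodes a subunit of cytochrome c oxidase, had 50028, 33243, 45021, 34887 and 37892 CPM in Con-mGC-1 to Con-mGC-5 (mean 40214 ± 7103). A share of 0.5 of the reads lay on 995 genes in Con-mGC-1 and on 1084 to 1159 genes in the other 4 mice.

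Among the 30 most abundant genes, 6 were mitochondrially encoded. Inhbb and Inhba, the beta subunits of inhibins and activins, averaged 2818 ± 416 and 2525 ± 624 CPM. Akr1cl, an aldo-keto reductase, averaged 2680.4 ± 265 CPM. Prkar2b, a regulatory subunit of the cAMP-dependent kinase that relays gonadotropin signals, averaged 1622 ± 222 CPM, and Greb1, a gene known for its response to estrogen, 1405 ± 323 CPM. Hba-a1 and Hbb-bs, the globins of red blood cells, were also in this set at 2339 ± 481 and 2102 ± 309.8 CPM. The remainder were genes of general use, such as Eef2, Actb, Hsp90ab1, the chaperone Hspa5, the saposin precursor Psap, the RNA helicase Ddx5 and the nuclear RNA Malat1, and the lipid enzymes Scd2 and Acsbg1. The lowest of the 30 had 1405 CPM and the next gene below had 1361 CPM.

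**Figure D1:**
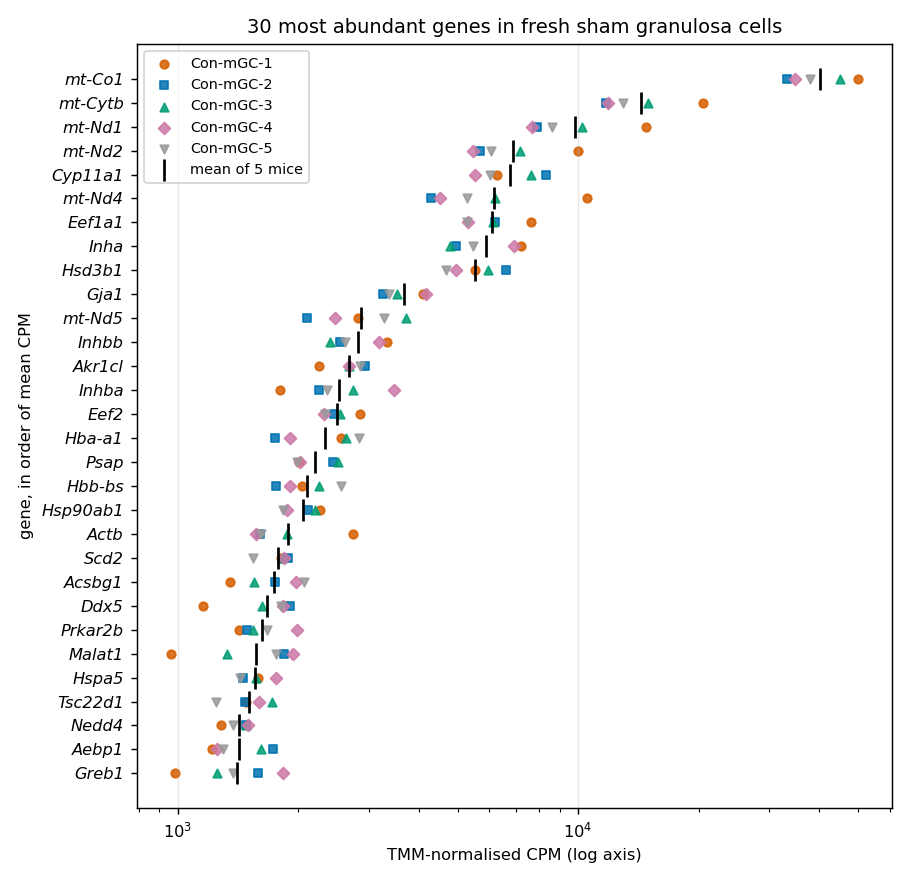
CPM of the 30 genes with the highest mean, in order of the mean, on a log axis. Each symbol is 1 mouse and the black bar is the mean of 5 mice. The mitochondrial genes mt-Cytb, mt-Nd1, mt-Nd2 and mt-Nd4 were highest in Con-mGC-1, where Malat1 and Ddx5 were lowest.

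CPM grows with transcript length, so genes were also ranked by CPM per kb of exon sequence. On this scale the first 10 were mt-Co1, mt-Cytb, mt-Nd1, mt-Nd2, mt-Nd4, Inha, Hsd3b1, Hba-a1, Hbb-bs and Eef1a1. Inha stood at 3982 CPM per kb, above Hsd3b1 at 2987 and Cyp11a1 at 1405, whereas by CPM Cyp11a1 came first of the 3. Gja1, with 10257 bases of annotated exon sequence, moved from rank 10 to rank 61 with 359 CPM per kb. Lengths here and below are unions of all annotated exons of a gene. They can exceed the length of the transcript that the cells make, so the order per kb is uncertain. Of the 50 most abundant genes by CPM, 26 were also among the 50 by CPM per kb.

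The 4 markers used to check the label of the cells were all among the 10 most abundant genes. Cyp11a1, the enzyme that cleaves the cholesterol side chain in the first step of steroid synthesis, had 6288, 8297, 7621, 5517 and 6031 CPM in the 5 mice (6751 ± 1162). It was highest in Con-mGC-2 and lowest in Con-mGC-4. Hsd3b1, which turns pregnenolone into progesterone, had 5513, 6621, 5949, 4947 and 4677 CPM (5541 ± 779.9), highest in the same mouse. Inha, the alpha subunit of inhibin, which restrains release of follicle-stimulating hormone, had 7217, 4968, 4799, 6922 and 5459 CPM (5873 ± 1124) and was higher in Con-mGC-1 and Con-mGC-4 than in the rest. Gja1, the gap junction protein connexin 43, had 4095, 3251, 3524, 4163 and 3377 CPM (3682 ± 420.1). The means of Cyp11a1, Inha and Hsd3b1 lay within 1 SD of at least one other of the 3. Over the 5 mice each of these 4 genes stayed within a 1.50-fold range.

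The start regions of the granulosa cell genes are shown for a motif that nuclear receptors of the Nr5a family bind as part of a longer site. Nr5a2 itself averaged 951 ± 167 CPM and Nr5a1 386 ± 43.2 CPM in these cells. The letters AGGTCA were searched on both strands in the 250 bases before the start sites that RefSeq gives on GRCm38.p6, and 15 of the 18 granulosa markers had such a region. The motif was present for 6 of these 15 genes (40.0%) and for 15.8% of all 27025 genes with a region. Among the nuclear genes of the 30 most abundant it was present for 5 of 21 with a region (23.8%). Genes with several start sites had several regions, and 31.6% of the 19 marker regions held the motif, against 14.0% of all regions. A match describes letters only, and it was not tested whether any factor binds there. The match of Amhr2 is not printed. The 30 bases around the other 5 matches follow in the 5′ to 3′ direction of the gene, with the motif or its reverse complement in capitals.
Inha, chr1:75507528-75507557, plus strand, motif from base -69: ttggggattggcAGGTCAactttgaagagt
Cyp11a1, chr9:58014912-58014941, plus strand, motif from base -28 of the downstream start: gaggaaggggggAGGTCAccgctccatcag
Cyp19a1, chr9:54268228-54268257, minus strand, reverse complement from base -81: agttggaatttgTGACCTctagaacccaag
Lhcgr, chr17:88792119-88792148, minus strand, motif from base -122: ggccacagtcccAGGTCAaggagaacaggg
Nr5a2, chr1:136960495-136960524, minus strand, motif from base -64: atggtttacagcAGGTCAtacatgctggaa

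Genes of steroid synthesis were abundant. Of 16 listed genes 15 had a mean of at least 5 CPM, and 2 of these (13.3%) had a 2-fold range, that is, a highest mouse at least 2 times the lowest. Over all 12267 genes at this level 1390 had such a range (11.3%), or 652 of 12260 (5.32%) without Con-mGC-1. The share was 34.6% at 5 to 10 CPM, 4.23% at 100 to 500 CPM and 6.70% at 500 CPM or more. Star, which carries cholesterol into mitochondria, had 715, 1090.3, 776, 565 and 554 CPM (739.9 ± 218), and the electron carriers of Cyp11a1, Fdx1 and Fdxr, averaged 486 ± 136 and 650.1 ± 89.2 CPM. Cyp19a1, the aromatase that makes estrogen, had 264, 235, 248, 334 and 221 CPM (260.3 ± 44.2), and Hsd17b1, which turns estrone into estradiol, averaged 574 ± 89.8 CPM. Per kb of transcript Hsd17b1 (428 CPM per kb) was higher than Cyp19a1 (57.6 CPM per kb). Hsd17b7, with 233, 489.5, 409, 236 and 251 CPM, was higher in Con-mGC-2 and Con-mGC-3 than in the other 3. Hsd3b6 was near the floor at 0.215 CPM.

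Akr1c18 had the largest range of this list, and Hsd17b7 was the other gene with a 2-fold range. It encodes the 20-alpha-hydroxysteroid dehydrogenase that inactivates progesterone in the rodent corpus luteum. Its values were 129, 116, 312, 40.9 and 6.17 CPM, a 50.6-fold range between Con-mGC-3 and Con-mGC-5. The luteal list held 5 genes with a 2-fold range among 7 (4 of 7 without Con-mGC-1), beside the 11.3% of all genes. Its sum was 3495, 4689, 5219, 3037 and 2569 CPM, highest in Con-mGC-3 and Con-mGC-2. Ptgfr, the receptor for the luteolytic prostaglandin, had 138, 162, 202, 74.0 and 76.7 CPM, and Sfrp4, a secreted Wnt antagonist, 1021, 1049, 1702, 780.3 and 548 CPM. The prolactin receptor Prlr had 251, 529, 558, 420.1 and 381 CPM and was also highest in Con-mGC-3 and Con-mGC-2, but lowest in Con-mGC-1. Of the 7 luteal genes, 5 also stand on other lists, and granulosa cells are known to express them, so the sum does not count luteal cells.

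Receptors for both gonadotropins were expressed. Lhcgr, the receptor for luteinizing hormone, had 669, 1093, 998, 819 and 668 CPM (849 ± 192), and Fshr, the receptor for follicle-stimulating hormone, 115, 109.9, 123, 115 and 135 CPM (119.6 ± 9.77). Per kb of transcript these means were 111 and 50.7. Esr2, the estrogen receptor typical of granulosa cells, averaged 191 ± 51.6 CPM, Insr 126 ± 18.2 and Igf1r 209.9 ± 19.3 CPM. Esr1, the estrogen receptor better known from theca and stroma, averaged 36.5 ± 3.14 CPM. Per kb, Esr2 stood at 56.6 and Esr1 at 2.67. Among the 10 receptors at 5 CPM or more, Prlr alone had a 2-fold range (10.0%, beside 11.3% of all genes), and 0 of 10 did so without Con-mGC-1.

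Genes that granulosa cells turn on within hours of the ovulatory surge were mostly low. Pgr, the progesterone receptor, had 1.53, 7.59, 2.98, 3.49 and 1.79 CPM. Ptgs2, the inducible cyclooxygenase, had 0.664, 16.0, 7.12, 2.74 and 1.17 CPM, and Tnfaip6, a hyaluronan-linking protein of the expanding cumulus, 1.33, 15.2, 6.08, 2.74 and 1.05 CPM. Con-mGC-2 was highest for all 3. The EGF-like ligand Ereg reached 22.8 CPM in Con-mGC-2 and 0.617 to 1.75 CPM in Con-mGC-3, Con-mGC-4 and Con-mGC-5, with 1 read in Con-mGC-1. Areg, a ligand of the same receptor, had 4.02 CPM in Con-mGC-2 and at most 1.36 CPM elsewhere, and Sult1e1, the estrogen sulfotransferase, was listed at 3.57 CPM in Con-mGC-2 and at 0 in the other 4 mice. A count of 0 allows up to 3 reads, or 0.185 to 0.205 CPM in these libraries, for counting error alone. Other members were well expressed in every mouse. Rgs2 averaged 225 ± 28.0 CPM, Runx2 94.4 ± 39.5 CPM and the protease Adamts1 93.0 ± 22.5 CPM. Ereg, Ptgs2 and Tnfaip6 reached a mean of 5 CPM through Con-mGC-2, so the number of genes of this list with a 2-fold range is not read against that of all genes. For superovulated ICR mice the methods give the interval from gonadotropin to collection as a range of hours, and not mouse by mouse.

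The inhibin, activin and bone morphogenetic protein genes were led by the inhibin subunits. Of 16 listed genes 15 reached 5 CPM, and Amh was the one with a 2-fold range (6.67%, beside 11.3% of all genes). Follistatin, Fst, which binds activin, averaged 689.7 ± 97.2 CPM. Inhba had 1802, 2251, 2739, 3467 and 2364 CPM and was lowest in Con-mGC-1, where Inha was highest. The receptors Bmpr2, Bmpr1b and Amhr2 averaged 626 ± 90.3, 168 ± 20.2 and 123 ± 16.8 CPM. Amh, anti-Mullerian hormone, a product of small growing follicles, had 119, 37.9, 50.5, 66.5 and 95.1 CPM. It was highest in Con-mGC-1 and Con-mGC-5, the mice in which oocyte transcripts were also highest.

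The spread between mice was measured for each gene. The CV beyond counting error, which is the SD over the mean of the 5 mice after subtraction of the variance that counting alone gives, had a median of 12.5% over the 12267 genes, a 10th percentile of 4.52% and a 90th percentile of 27.8%. Without Con-mGC-1 the median was 8.65%, and without any other mouse it was 12.4% to 13.2%. By list the median CV was 17.2% for steroid synthesis, 18.1% for cholesterol synthesis and uptake, 15.0% for the follicular matrix, 14.8% for heat shock, 14.1% for inhibin, activin and bone morphogenetic protein genes, 13.4% for antioxidant genes and 10.6% for the cell cycle. The median ratio of the highest to the lowest mouse was 1.39. The median CV was 19.9% for genes at 5 to 10 CPM and 10.5% at 50 to 100 CPM, and 14.6% for the 194 genes at 500 CPM or more. The common biological coefficient of variation from edgeR was 0.198 over 15517 genes and 0.160 without Con-mGC-1. Without any other mouse it was 0.202 to 0.211.

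**Figure D2:**
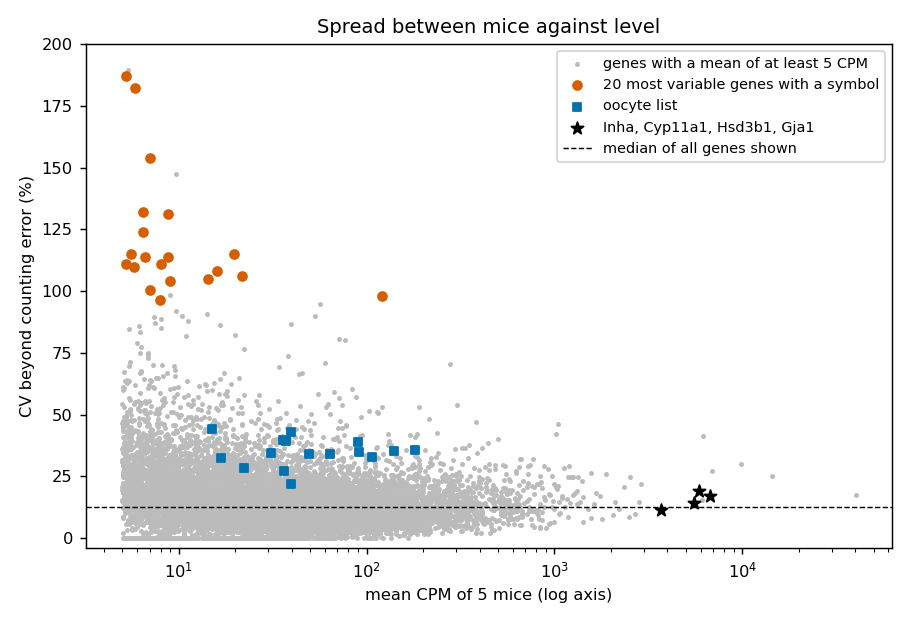
CV beyond counting error in percent against the mean CPM of 5 mice on a log axis, for the 12267 genes at a mean of 5 CPM or more. Each dot is 1 gene, and the dashed line marks the median of 12.5%. The 4 granulosa markers lie between 11.4% and 19.1%, the oocyte list above the line, and 15 of the 20 most variable genes below 10 CPM.

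Among the 1390 genes with a 2-fold range, Con-mGC-1 was the lowest mouse for 550 and the highest for 398. Con-mGC-3 was the highest for 326 and the lowest for 95. The highest and lowest mouse were not counted over all genes at 5 CPM or more, so such counts for the lists have no background. A gene was set apart in a mouse when it was at least 2-fold above or below the median of the other 4. In Con-mGC-1, 160 genes (1.30%) were above and 284 (2.32%) below. In Con-mGC-3, 132 genes (1.08%) were above and 19 (0.155%) below. Con-mGC-5 had 35 above (0.285%) and 114 below (0.929%), Con-mGC-2 had 39 above (0.318%) and 65 below (0.530%), and Con-mGC-4 had 34 above (0.277%) and 56 below (0.457%). With Con-mGC-1 left out, the counts of Con-mGC-2 became 59 above and 40 below, and Con-mGC-5 had 54 above.

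The 20 genes with the largest CV among those with an assigned symbol lay between 96.5% and 187%. The next gene, mt-Nd4l, had 94.7%, and its end overlaps the start of mt-Nd4. Con-mGC-3 was the highest mouse for 13 of the 20 and Con-mGC-2 for 5. Those highest in Con-mGC-3 include genes known from macrophages, neutrophils and inflammation. Acod1, which makes itaconate in activated macrophages, had 2.65, 3.06, 26.6, 2.05 and 0.987 CPM. Il1b, the cytokine interleukin 1 beta, had 3.85, 4.15, 21.3, 7.11 and 3.08 CPM, and Tnf 2.79, 5.80, 16.7, 2.94 and 0.679 CPM. The chemokine Ccl6 had 6.90, 12.8, 46.2, 6.77 and 6.66 CPM. The receptor genes Lilrb4a and Lilrb4b, near-identical neighbours that may exchange reads, also peaked in this mouse, at 23.4 and 61.8 CPM. Acod1, Il1b and Tnf reached a mean of 5 CPM through Con-mGC-3. So did Lilrb4a, Chil1, S100a9, Clec4e, Ccl9 and Rpl17-ps5, also among the 13. The number of the 20 that were highest in this mouse thus depends on the minimum mean. Since all 20 genes were picked for their spread, their values describe the 5 mice and support nothing further.

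**Figure D3:**
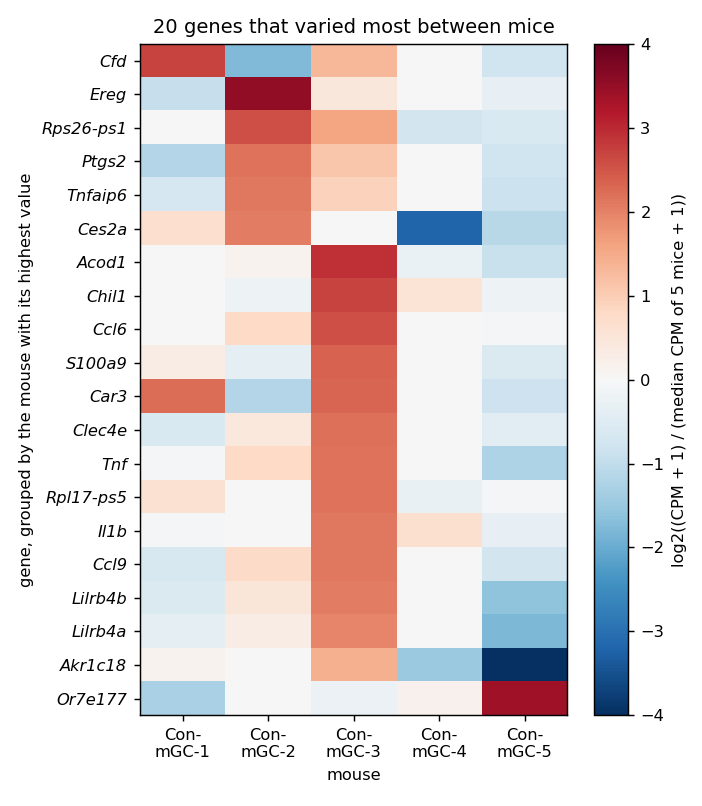
The 20 genes with the largest CV beyond counting error. Rows are genes, grouped by the mouse with the highest value, columns are the 5 mice, and colour gives log2 of CPM plus 1 over the median of the 5 mice plus 1, red above and blue below the median. The red block of 13 genes stands in Con-mGC-3, and 5 genes are highest in Con-mGC-2. Most of the 13 reached the minimum mean of 5 CPM through Con-mGC-3.

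Con-mGC-1 differed from the rest in broad classes of transcript. Mitochondrially encoded genes took 11.1% of its reads, against 6.76%, 8.99%, 7.13% and 7.94% in Con-mGC-2 to Con-mGC-5. Long noncoding RNA took 1.09%, against 1.35% to 1.66%. The nuclear RNAs Xist, which coats the silent X chromosome, Malat1 and Neat1, of nuclear speckles and paraspeckles, were lowest in this mouse. Xist had 593, 1479.9, 1186, 1355 and 1337 CPM, Malat1 962, 1840.5, 1332, 1944 and 1760.1 CPM, and Neat1 396, 954, 706, 752 and 1029 CPM. Of 6 listed long noncoding RNAs, 5 were lowest in Con-mGC-1 and 1 was highest there. Of the 284 genes set below in Con-mGC-1, 20.4% were long noncoding RNA genes, compared with 2.72% of all genes at 5 CPM. Conversely, 62 of 76 cytosolic ribosomal protein genes were highest in Con-mGC-1, although 5 of the 76 (6.58%, beside 11.3% of all genes) had a 2-fold range, and 2 of 76 (2.63%) without this mouse. Their summed CPM was 31828, 26704, 26637, 23791 and 23581. The 160 genes set above in Con-mGC-1 had a median exon length of 2532 bases and 18.9% exceeded 5 kb, compared with 4556 bases and 44.6% of all genes. This was not particular to Con-mGC-1. The genes set above or below in Con-mGC-2 to Con-mGC-5 had medians from 2507 to 4632 bases, shortest for those below in Con-mGC-4, of which 21.4% exceeded 5 kb. Actb had 2734 CPM in this mouse and 1570.0 to 1879 CPM in the others. No record of RNA quality was used here, and its part in these values was not tested.

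A few genes were far lower in some mice than in others. Zfp979, a zinc finger gene, had 20.6, 27.3 and 22.2 CPM in Con-mGC-1 to Con-mGC-3 and 0.274 and 0.370 CPM (4 and 6 reads) in Con-mGC-4 and Con-mGC-5. Ces2a, a carboxylesterase, had 21.6, 58.3, 13.2, 0.547 and 5.55 CPM. Rpsa-ps10, a processed pseudogene of a ribosomal protein, had 197, 272, 229, 15.5 and 232 CPM. The olfactory receptor gene Or7e177 had 24.9 CPM in Con-mGC-5 and at most 1.78 CPM in the other mice. Its neighbour of the same family, Or7e176, had 6.35 CPM in Con-mGC-5 and at most 0.510 CPM elsewhere. By another rule, at least 5 CPM in one mouse and at most 3 reads in another, 13 genes were found, and of the 5 named here Or7e177 and Or7e176 met it. ICR mice are outbred, and genotypes were not part of these data. The pseudogene and the members of gene families share sequence with other genes, so their reads may be split.

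Transcripts of other ovarian cell types were found beside those of granulosa cells. In RNA of whole isolates, fewer cells of a type and less RNA per cell cannot be told apart, and the sums below are not cell numbers. The 18 granulosa markers summed to 32951, 33279, 32135, 34344 and 29764 CPM (32495 ± 1719.7), which is 3.25% of reads. Of these 18, 15 also stand on lists of function, such as steroid synthesis. Cyp11a1, Hsd3b1 and Gja1, with means of 6751, 5541 and 3682 CPM, are not among the markers that define the list. The sum is thus not particular to granulosa cells. Next were the red blood cell list at 5034 ± 908 CPM, or 0.503% of reads, the luteal list at 3802 ± 1118, stroma at 1933 ± 68.3 and the oocyte list at 1001 ± 337 CPM. Smooth muscle and pericyte markers summed to 372 ± 49.6 CPM, macrophage markers to 341 ± 89.1, theca to 271 ± 41.1, surface epithelium to 219 ± 33.2 and endothelium to 226 to 268 CPM in the single mice. Pan-leukocyte, oviduct, neutrophil, adipocyte and lymphocyte lists summed to 77.5, 62.7, 42.9, 27.3 and 16.4 CPM on average.

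**Figure D4:**
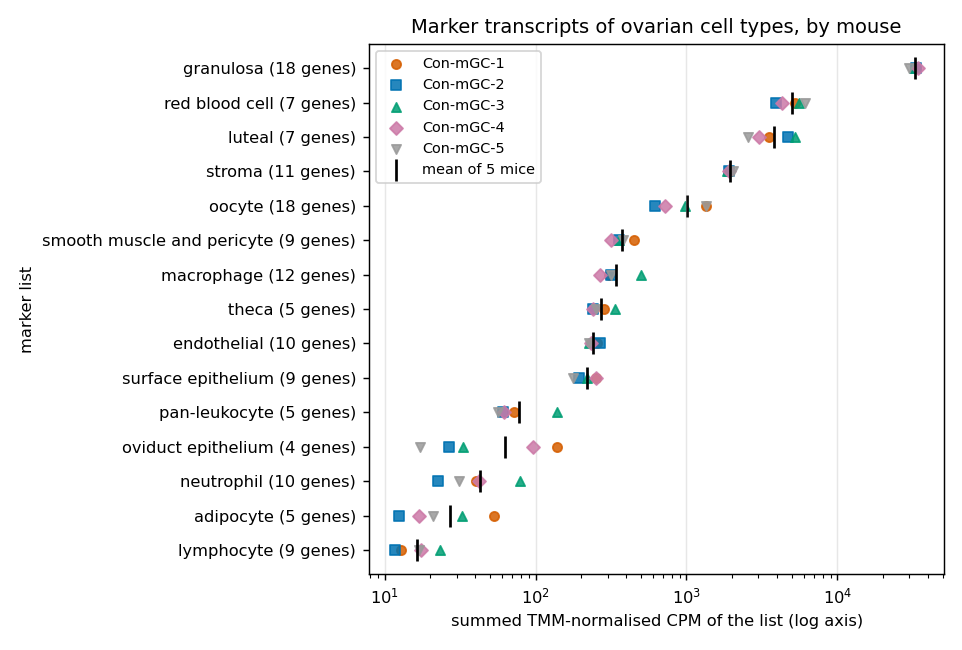
Summed CPM of 15 marker lists on a log axis, in order of the mean. Each symbol is 1 mouse and the black bar is the mean of 5 mice. Granulosa, stroma and endothelial sums lie close together over the mice, whereas the oviduct list spans 17.1 to 139 CPM, and the macrophage, pan-leukocyte and neutrophil lists are highest in Con-mGC-3.

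Stromal and vascular markers were present in every mouse. The stroma list had no gene with a 2-fold range among 11 (11.3% of all genes), and its sum was 1926, 1908, 1863, 1924 and 2047 CPM. The collagens Col3a1, Col1a2 and Col1a1 averaged 673 ± 57.7, 430.1 ± 33.8 and 406 ± 50.3 CPM, and the more restricted markers Dcn and Pdgfra 106 ± 16.4 and 29.8 ± 3.18 CPM. The median CV was 12.3% over the stroma list, 16.3% over the endothelial list and 17.4% over the smooth muscle and pericyte list, beside 12.5% of all genes. None of 10 endothelial genes had a 2-fold range either, among them Pecam1 at 35.0 ± 3.84 and Cdh5 at 42.0 ± 8.48 CPM. Acta2, the smooth muscle actin of the theca externa and vessel walls, had 276, 177, 172, 152 and 202 CPM.

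Theca markers stood at very different levels. Cyp17a1, the androgen-making enzyme of theca cells, had 229, 168, 268, 172 and 172 CPM (202 ± 44.8), whereas Insl3, the hormone of the same cells, had 0.664, 2.61, 3.43, 1.91 and 3.33 CPM. Per kb of transcript the means were 73.0 and 3.84. Ptch1, the hedgehog receptor and target, averaged 56.8 ± 9.17 CPM, and the other hedgehog targets Gli1 and Hhip 6.22 ± 1.08 and 2.97 ± 0.642 CPM. Of the surface epithelial markers, Upk3b averaged 56.4 ± 6.90 CPM and Krt19 45.0 ± 14.3 CPM, and Cdh1, E-cadherin, had 37.8 CPM in Con-mGC-1 and 8.29 to 14.6 CPM in the others.

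Oocyte transcripts were present in all 5 isolates and most moved together. Of the 16 oocyte genes at 5 CPM or more, 13 had a 2-fold range (81.2%, beside 11.3% of all genes), and 11 did so without Con-mGC-1 (68.8%, beside 5.32%). Con-mGC-1 was highest for 9 of the 16 and Con-mGC-5 for the other 7, and Con-mGC-2 was lowest for 13. Gdf9, the oocyte growth factor that acts on granulosa cells, had 252, 111, 172, 129 and 246 CPM. Its partner Bmp15 had 136, 69.0, 95.8, 82.2 and 150.4 CPM. The zona pellucida genes Zp3 and Zp2 had 75.5, 41.1, 67.9, 42.8 and 91.9 CPM and 110.0, 58.4, 85.9, 67.1 and 137 CPM, with the same order of mice in both. The maternal factor Padi6 averaged 139.7 ± 49.5 CPM and the linker histone H1f8 90.4 ± 35.4 CPM. The germ cell factor Figla was near the floor in every mouse, at 0.383 to 0.647 CPM.

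**Figure D5:**
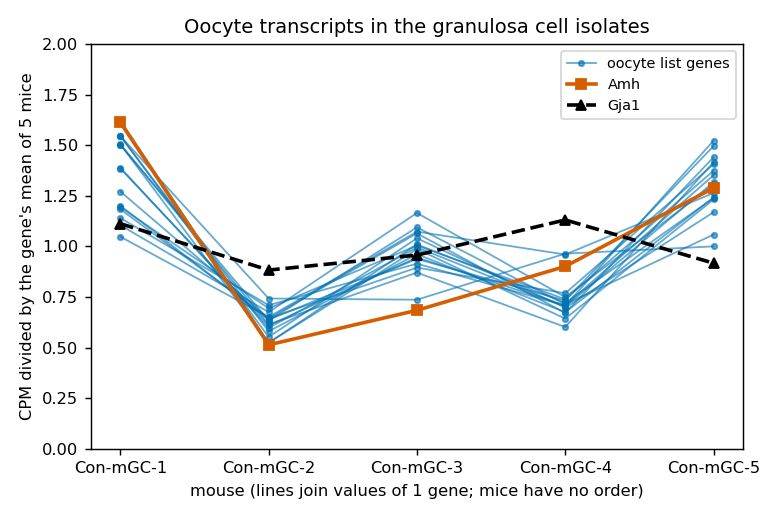
CPM of the 16 oocyte genes with a mean of at least 5 CPM, each divided by its mean of 5 mice, with Amh and Gja1 for comparison. Lines join the values of 1 gene and mice have no order. Most of the oocyte genes are high in Con-mGC-1 and Con-mGC-5 and low in Con-mGC-2 and Con-mGC-4, and the granulosa gene Gja1 stays near 1.

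Leukocyte transcripts were low and highest in Con-mGC-3. Ptprc, the leukocyte antigen CD45, had 11.0, 14.2, 36.8, 15.2 and 13.6 CPM. All 10 macrophage genes at 5 CPM or more were highest in this mouse, such as the growth factor receptor Csf1r at 41.5, 42.9, 58.1, 36.7 and 54.8 CPM and the lysozyme Lyz2 at 108, 129, 213, 109 and 87.3 CPM. Of these 10, 4 had a 2-fold range (40.0%, beside 11.3% of all genes), 3 of 10 without Con-mGC-1, and 0 of 10 without Con-mGC-3 (9.22% of all genes). Ly6g, which defines mouse neutrophils, was at 0 reads in 3 mice and at most 0.194 CPM in the others. The neutrophil genes S100a9 and Csf3r had 20.6 and 19.1 CPM in Con-mGC-3 and at most 4.18 and 6.02 CPM in the other mice. Both reached a mean of 5 CPM through Con-mGC-3, and without it 1 gene of the neutrophil list did so. Ltf, lactoferrin, also on the neutrophil list, did not follow them, with 28.5, 11.0, 12.2, 27.7 and 22.3 CPM. Lymphocyte markers Cd3e, Cd79a and Ncr1 averaged 1.08, 2.58 and 0.861 CPM, and none of the 9 genes of that list reached a mean of 5 CPM.

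Among the lists beyond the cell types, immediate early and antigen presentation genes were also high in Con-mGC-3. The interferon response sum was highest there too, at 453 CPM against at most 403 CPM in the other mice. So was the heat shock sum, at 6565 CPM against at most 6401 CPM. Of 15 immediate early genes at 5 CPM or more, 12 were highest there, among them Fosb with 143, 136, 230.1, 149.6 and 105 CPM and Atf3 with 50.8 CPM there and 14.1 to 23.7 CPM in the other mice. A 2-fold range was found for 7 of the 15 (46.7%, beside 11.3% of all genes), and for 1 of 15 without Con-mGC-3 (6.67%, beside 9.22%). Of 12 antigen presentation genes, 9 were highest there, such as the class II invariant chain Cd74 with 78.6, 68.2, 114, 55.1 and 39.4 CPM and the class II gene H2-Ab1 with 9.76, 15.6, 23.5, 12.4 and 7.77 CPM. A 2-fold range was found for 5 of these 12 (41.7%), and also for 5 of 12 without Con-mGC-3. The pan-leukocyte sum was 71.6, 60.8, 138, 61.4 and 56.0 CPM in the same mice, and its part in these values was not tested.

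Some markers of the oviduct and of fat had a wide range over the isolates. Ovgp1, the oviduct glycoprotein, had 123, 23.5, 22.7, 82.2 and 13.9 CPM and was high in Con-mGC-1 and Con-mGC-4. Foxj1, the master regulator of motile cilia, had 13.0, 1.98, 7.44, 10.7 and 1.23 CPM, and the cilia gene Cfap65 16.3, 2.10, 6.60, 14.2 and 1.17 CPM. Pax8 and Wfdc2, of the secretory oviduct epithelium, were low, at 1.75 ± 0.724 and 0.922 ± 0.437 CPM. Cfd, adipsin, had 28.3, 0.319, 10.3, 3.49 and 1.60 CPM, and Adipoq, adiponectin, 3.25, 0.0638, 3.62, 0.957 and 0.432 CPM. Car3, a carbonic anhydrase abundant in fat, had 29.7, 1.91, 31.9, 5.54 and 2.65 CPM. Cfd, Adipoq and Car3 were higher in Con-mGC-1 and Con-mGC-3 than in the other mice. Plin1, perilipin of the fat droplet, did not follow them, with 19.2, 11.9, 16.7, 12.1 and 18.7 CPM, a 1.61-fold range.

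Red blood cell transcripts had the highest sum after those of the granulosa list. Hba-a1 had 2564, 1748, 2629, 1910.2 and 2845 CPM and Hbb-bs 2042, 1758, 2253, 1908 and 2551 CPM. Alas2, the heme synthesis enzyme of the red cell lineage, had 232, 127, 214, 137 and 209 CPM. Con-mGC-2 was lowest for all 5 genes of the list at 5 CPM or more and Con-mGC-5 highest for 4. The alpha globin genes Hba-a1 and Hba-a2 are near-identical, and their reads may be split between them. Slc4a1, a membrane protein of the red cell lineage, was at 2.52 CPM.

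Genes of dividing cells and of the follicular matrix were expressed in every mouse. None of 18 cell cycle genes had a 2-fold range (11.3% of all genes, and 3.99% of those at 50 to 100 CPM). Mki67 averaged 234 ± 19.9 CPM, Top2a 172 ± 14.0, Ccnd2, the cyclin that follicle-stimulating hormone induces in granulosa cells, 218 ± 22.1 and Cdk1 43.4 ± 1.91 CPM. None of 13 matrix genes had a 2-fold range, with the antiprotease Serpine2 at 1161 ± 183 CPM, Thbs1 at 1027 ± 205, Sparc at 991 ± 216 and the basement membrane chain Col4a1, which overlaps Col4a2, at 671 ± 65.0 CPM. Of 18 genes of cholesterol synthesis and uptake, 1 had a 2-fold range (5.56%), and 2 of 18 without Con-mGC-1 (11.1%, beside 5.32% of all genes). The TMM factors were computed anew without that mouse, so a gene near the limit could pass it. Fdps had a 1.99-fold range with all 5 mice. Scarb1, the receptor that takes up cholesterol from lipoproteins, averaged 1039 ± 219.6 CPM, and Hmgcs1 397 ± 109.9 CPM. Con-mGC-5 was lowest for 13 of the 18, and Con-mGC-2 was highest for 9 and Con-mGC-3 for 6.

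The enzymes that make or break down epoxyeicosatrienoic acids (EETs), lipid mediators made from arachidonic acid, were led by the hydrolases. Ephx2, the soluble epoxide hydrolase that turns EETs into diols, had 1089.9, 1113, 1126, 699 and 593 CPM (924 ± 257) and was lower in Con-mGC-4 and Con-mGC-5 than in the other 3 mice. Ephx1, the microsomal form, averaged 179 ± 29.8 CPM, and per kb of transcript the means were 372 for Ephx2 and 91.9 for Ephx1. Cyp2j6 and Cyp2j9, of the epoxygenase family, averaged 10.6 ± 1.72 and 3.46 ± 0.757 CPM, while Cyp2j5 and Cyp2c23 were near the floor at 0.0247 and 0.104 CPM.

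Antioxidant and heat shock genes were found in every mouse. Of 14 antioxidant genes 1 had a 2-fold range (7.14%, beside 11.3% of all genes), Gpx3, a secreted glutathione peroxidase, with 330.4, 249, 271, 122 and 205 CPM. Prdx1, Gstm1 and Sod1 averaged 466 ± 70.5, 356 ± 51.9 and 316 ± 37.1 CPM. Hsp90ab1 and Hspa5 led the heat shock list with 2059 ± 193 and 1562 ± 130.2 CPM, and 1 of its 11 genes had a 2-fold range (9.09%), 0 of 11 without Con-mGC-1. Interferon response genes were low, and 4 of 8 had a 2-fold range, beside 11.3% of all genes and 34.6% of those at 5 to 10 CPM. Without Con-mGC-1, when 10 genes of the list rather than 8 reached 5 CPM, it was 6 of 10 (60.0%). Bst2 was the exception at 206 ± 22.9 CPM, and Con-mGC-2 was lowest for 6 of the 8.

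Genes often used as references differed in their spread. Sdha had 316, 337, 312, 332 and 320.3 CPM, a 1.08-fold range, and Gusb 101, 105, 102, 102 and 99.6 CPM, a 1.05-fold range. Hprt and Tbp stayed within 1.12-fold and 1.11-fold. Actb spanned 1.74-fold and B2m 1.65-fold. Gapdh had 101 ± 12.9 CPM, and since it has many pseudogenes its level depends on how reads with several matches were counted, which the sources used here do not give. Among genes at 5 CPM or more with an assigned symbol, the 10 named for the smallest spread had no CV beyond counting error. Other genes, such as Cnn1, had none either, and the 10 were those with the smallest CV before the subtraction. The 10 include Lima1 with 58.0, 59.0, 59.2, 58.5 and 59.0 CPM, Ubtf, a factor for ribosomal RNA synthesis, with 161 to 168 CPM, and Senp3 with 102 to 106 CPM.

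Some mitochondrial values rest on reads that other sequence could share. mt-Co1 stood at 26029 CPM per kb, whereas mt-Co2 and mt-Co3, subunits of the same enzyme, stood at 968 and 636, and mt-Atp6 at 425. mt-Co3 had 398, 277, 400.0, 682 and 736 CPM, and mt-Nd4l had 151 CPM in Con-mGC-5 and 22.2 to 49.7 CPM in the others. The order of mice for these genes was not that of mt-Nd1, mt-Nd2 and mt-Cytb, which were highest in Con-mGC-1. Copies of mitochondrial sequence lie in the nuclear genome, and their part in these values was not tested.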

How the data were processed

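RNA of freshly isolated mGCs from 5 sham-operated mice was extracted with TRIzol, made into stranded poly(A) libraries and sequenced from both ends. The authors deposited raw read counts per Ensembl gene, made with featureCounts. Per the submitters' processing notes reads were cleaned with fastp, aligned with HISAT2 and assembled with StringTie on GRCm39. The strand setting of the count and its treatment of reads with several matches are not given in the sources used here, so overlapping and near-identical genes are uncertain. No column of the table was left unmapped (0 columns), and the columns of the EM group were not used.

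TMM factors and the common dispersion of the 5 Con libraries came from edgeR 4.0.16 in R 4.3.3, and CPM used library totals times these factors. Spread was computed in Python 3.11.15 for genes with a mean of at least 5 CPM. Lengths were exon unions of GENCODE M21 on GRCm38, found for 99.5% of those genes, and were used for CPM per kb alone. Libraries differed by more than sampling noise (chi-square per degree of freedom between 10.2 and 44.7). Depth was 14462398 to 15999234 counts. Values are mean ± SD over 5 mice.

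Named genes were the 4 markers, the 30 most abundant and the 10 most abundant per kb, the 20 most and 10 least variable with an assigned symbol, the 3 farthest above and below in each mouse, and of each list the defining markers, the 4 most abundant members and the one with the largest range. Or7e176, further members of the lists and the genes printed for contrast were added after their values were seen. The members and lists were chosen with earlier results of these data known. The alternatives were no factors, DESeq2 1.42.0 size factors or upper-quartile factors in place of TMM, totals without mitochondrial genes, protein-coding genes alone, minimum means of 1 and 20 CPM, other measures of spread, CPM per kb, and each mouse left out. The measures of spread were tried first on simulated libraries in which 200 genes had a raised spread.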

Additional observations from a re-analysis of the deposited data

Results flagged for a closer look

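A value was noted where the highest or the lowest of the 5 mice lay apart from the others by more than 0.71 of the whole range. Of 177 values screened 23 did so. Chance alone gives about 1 in 20 such groups, and many of the genes screened were chosen for their spread, so the count itself says little.

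Con-mGC-3 was the mouse apart for 11 values. It was highest for the pan-leukocyte sum (138 CPM) and the macrophage sum (497 CPM), for the leukocyte antigen Ptprc (36.8 CPM), for the neutrophil genes S100a9 (20.6 CPM) and Csf3r (19.1 CPM), for Acod1 (26.6 CPM), Il1b (21.3 CPM), Ccl6 (46.2 CPM), Lilrb4a (23.4 CPM) and Lilrb4b (61.8 CPM), and for the stress-induced factor Atf3 (50.8 CPM).

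Con-mGC-1 was the mouse apart for 4 values. It had the fewest genes with a count (22071) and the highest Actb (2734 CPM), Cdh1 (37.8 CPM) and Cyp2j6 (13.5 CPM).

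Con-mGC-5 was highest for the olfactory receptor genes Or7e177 (24.9 CPM) and Or7e176 (6.35 CPM), for mt-Nd4l (151 CPM) and for Cyp2j5 (0.123 CPM, the one mouse with any read of it), and lowest for the lipid desaturase Scd2 (1542 CPM). Con-mGC-2 was highest for Ereg (22.8 CPM) and Sult1e1 (3.57 CPM), and Con-mGC-4 for mt-Co2 (1028 CPM).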

How the results depend on the processing

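No paired analysis was possible because 1 group is described and no comparison between groups was made. Of 285 alternative values, 247 stayed within the limits set around the value reported above. The limit was 1.5 times for counts, the median CV and the common biological coefficient of variation. For list sums, the share of the 10 most abundant genes and the genes holding a share of 0.5, it was 1 SD between mice. Leaving out 1 mouse cannot move such a mean by 1 SD, so the 247 include values that could not have moved. Nothing is concluded from them. The oviduct sum, for example, went from 62.7 to 43.8 CPM without Con-mGC-1 and counted as unmoved. Scaling without TMM, with DESeq2 size factors or with upper-quartile factors moved none of the values beyond these limits. With mitochondrial genes left out of the totals, the 10 most abundant genes held 4.46% of the reads, 1373 genes held a share of 0.5, and the granulosa, stroma and endothelial sums were 35473, 2111 and 264 CPM. By CPM per kb 26 of the 50 most abundant genes stayed.

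The number of genes with a 2-fold range was 4072 at a minimum mean of 1 CPM and 473 at 20 CPM. It was 652 to 1224 with 1 mouse left out, lowest without Con-mGC-1. Genes set apart above and below, at a minimum of 1 CPM, were 672 and 1068 in Con-mGC-1, 115 and 382 in Con-mGC-2, 373 and 234 in Con-mGC-3, 187 and 247 in Con-mGC-4, and 189 and 388 in Con-mGC-5. At 20 CPM they were 37 and 76, 9 and 14, 27 and 6, 9 and 18, and 10 and 32 in the same mice. Without Con-mGC-1, an alternative chosen after seeing the data, Con-mGC-2 had 59 above and 40 below and Con-mGC-5 had 54 above.

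Of the 20 most variable genes, 6 stayed at a minimum of 1 CPM, 2 at 20 CPM, 13 by edgeR's tagwise dispersion and 12 by the SD of log2(CPM + 1). With 1 mouse left out 8 to 16 stayed, fewest without Con-mGC-3. The names of the most variable genes thus depend on the minimum, since low genes vary most. Counting error limits genes under 5 CPM, and with 5 mice the CV of a single gene is itself imprecise.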
